A study of Mus musculus with 2 samples.

Results

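The genes described here encode the subunits of the proteasome, apart from its catalytic subunits. They were found by symbol in the platform annotation: every probe set with a single symbol that starts with Psma, Psmb, Psmc or Psmd and a number, leaving out Psmb5 to Psmb10. This gave 62 of 22626 gene probe sets on the array and 33 of the 12393 genes with 1 symbol. The symbol rule also took in Psmc3ip, a meiotic recombination factor that is no proteasome subunit, so the counts below are over the other 32 genes: 12 of the core, 6 ATPases and 14 further subunits and partners of the cap.

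The proteasome is the large protease of the cytosol and nucleus that degrades proteins tagged with ubiquitin. Its core is a barrel of stacked rings, with outer rings of Psma subunits that form the gate and inner rings of Psmb subunits, some of which carry the protease sites. A cap sits on the end of the barrel. The ring of Psmc ATPases in its base unfolds substrates and threads them through the gate, and the Psmd subunits bind ubiquitin, remove it and hold the cap together. In macrophages, IFN-gamma is known to exchange the catalytic subunits for immune forms that favour peptides for antigen presentation, while the other subunits are shared by both kinds of particle.

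RAW 264.7 cells, a mouse macrophage-like tumour line, had been given IFN-gamma at 1000 U/ml for 4 h, either alone or together with adenosine at 300 uM. Both groups therefore carry IFN-gamma, and an untreated group was not analysed here. RNA from 2 experiments was pooled for each treatment and put on 1 Affymetrix array, so there are no replicates, no difference below has a test, and the spread between the experiments cannot be recovered. The comparison asks how adenosine changes gene expression in macrophages activated by IFN-gamma.

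Of the macrophage markers on the array, 9 of 9 were measured, against 0 of 6 T and B cell markers and 0 of 6 fibroblast and epithelial ones. Deposited signals were mostly lower on the adenosine array, though not for every dim gene, with a median over gene probe sets of 15.2 against 45.9. The adenosine array was multiplied by 2.82 to remove the median log2 ratio between the arrays, -1.50, and a positive log2 ratio below means a brighter adenosine array. Log2 ratios and signals below are on that scale unless called deposited, and a gene was counted as measured when at least 1 array reached a floor of 44.0. The 18 probe sets of spiked-in hybridisation controls (BioB, BioC, BioD and cre) had a median deposited log2 ratio of -0.53. These controls do not measure the amount of RNA per cell. The cause of the lower deposited signals was not tested, and with 1 array per treatment differences in the cells and in the arrays cannot be told apart. In such bulk samples fewer cells and less RNA per cell cannot be told apart either. The error of a log2 ratio can be judged only from genes with several probe sets: those of 1 gene scattered with an SD of 0.52 over 2375 genes, and of 0.42 among the brightest 25% of these genes.

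All 32 subunit genes were measured, and on the scaled arrays nearly all of them stayed close to the array median with adenosine. Their median log2 ratio was 0.02, with quartiles of -0.12 and 0.18, beside a median of -0.08 and quartiles of -0.52 and 0.30 for all 6818 measured genes. At least 2-fold lower was 1 of the 32, the ATPase gene Psmc4, and none was 2-fold higher. Among all measured genes 10.1% were 2-fold lower and 4.52% were 2-fold higher. Above 0 were 18 of the 32, or 56.2%, against 44% of all measured genes and 50.6% of the brightest 25%. At 1.5-fold, Psmc4 and Psmd10 were lower and Psmd3 was higher, against backgrounds of 21.8% and 12.9%.

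Signal matters to this reading, because 27 of the 32 subunit genes lay in the brightest 25% of measured genes, where log2 ratios spread less. That bright group had a median log2 ratio of 0.01 and quartiles of -0.3 and 0.32, so its median is close to the 0.02 of the subunit genes. In that bright group 6.1% of genes were 2-fold lower and 2.4% were 2-fold higher, and the 1 subunit gene of 27 that passed 2-fold is not far from that background. Log2 ratios within 1 overall scatter SD (0.52) of 0 were found for 29 of the 32 subunit genes, or 90.6%. The same held for 70.4% of the bright group and for 59.8% of all measured genes. Across the 32 genes the log2 ratios had an SD of 0.39, which became 0.28 without Psmc4, below the scatter of 0.42 between probe sets of bright genes. Psmc4, Psmd3 and Psmd10 were the 3 subunit genes that lay farther than 0.52 from the array median.

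**Figure D1:**
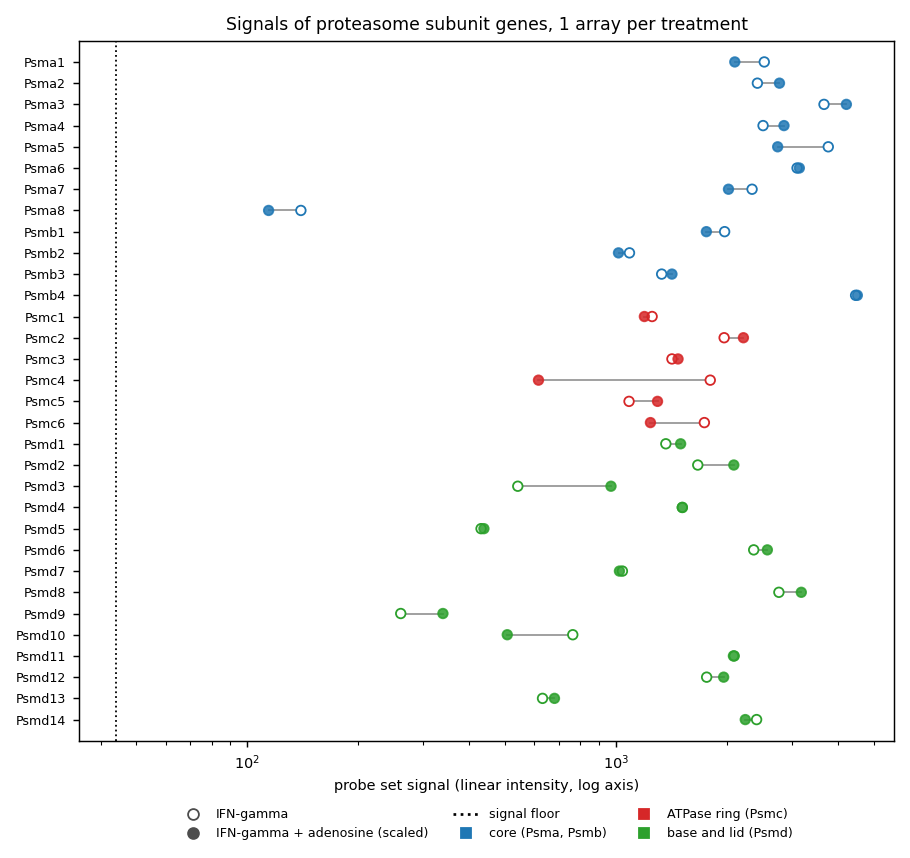
Signals of the 32 subunit genes (linear intensity on a log axis) with IFN-gamma alone (open circles) and with adenosine, scaled (filled circles), 1 array each, coloured by class; the dotted line is the floor of 44.0. Most pairs nearly coincide; Psmc4 has the widest gap, from 1800 to 615.9, and Psmd3 runs the other way, from 541.2 to 968.5.

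**Figure D2:**
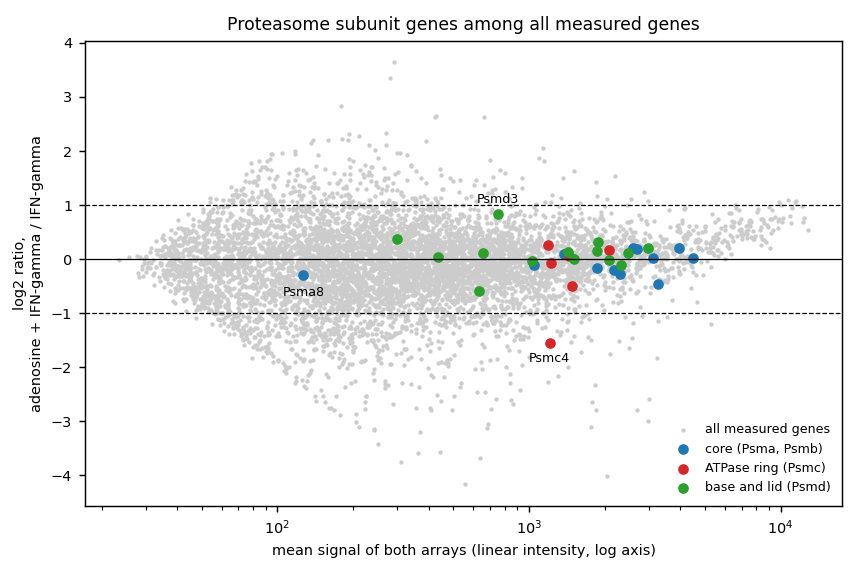
Log2 ratio of the adenosine array to the other against the mean signal of both arrays for 6818 measured genes (grey) and the 32 subunit genes (coloured by class); dashed lines mark 2-fold. Of the subunit genes 27 lie in the brightest 25% of measured genes and 5 are dimmer, Psma8 the dimmest; Psmc4 (-1.55) and Psmd3 (0.84) are the lowest and the highest.

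Genes of the core's outer rings had log2 ratios on both sides of 0, with a median of -0.10 over the 8 Psma genes and a range from -0.46 to 0.20. Psma2 had signals of 2416 with IFN-gamma and 2773 with adenosine, Psma3 of 3662 and 4211, and Psma4, whose product has a tail that helps to close the gate, of 2503 and 2852. The 3 lay at 0.20, 0.20 and 0.19 on the log2 scale and were slightly brighter on the adenosine array. Psma6 was at 3095 and 3139 (0.02, second probe set 0.18). A dim probe set of Psma6 went from 15.1, raised to the floor, to 63.7, a log2 ratio of at least 0.53.

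Psma1 was at 2522 and 2098 (-0.27) and Psma7 at 2337 and 2017 (-0.21), the latter with a second probe set at -0.24. Psma5 went from 3761 to 2742, the lowest core log2 ratio at -0.46, but its second probe set, at -0.01, did not show it. Psma8, which encodes a form of the Psma7 subunit found in testis, had the dimmest signals of the set, 139.7 and 114.2 (-0.29).

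The 4 inner-ring genes of this set, whose products hold the rings together without a protease site, were closer still, from -0.16 to 0.09. Signals were 1969 and 1757 for Psmb1, and 1087 and 1015 for Psmb2. Psmb3 was at 1329 and 1417, and Psmb4 at 4461 and 4509. Second probe sets of Psmb3 (-0.44) and Psmb4 (-0.56) lay lower than the first (0.09 and 0.02), so their signs are not settled. For the whole core the median was -0.04 over 12 genes, none of them 2-fold lower or higher.

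Among the 6 ATPases, which form a single ring and are needed together, the median was -0.01 and 5 lay between -0.49 and 0.26. Psmc1 was at 1252 and 1193 (-0.07), Psmc2 at 1963 and 2214 (0.17, second probe set -0.25), Psmc3 at 1417 and 1472 (0.06) and Psmc5 at 1084 and 1295 (0.26). None of these 4 left the scatter of probe sets.

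Psmc6 was at 1735 with IFN-gamma and 1239 with adenosine, a log2 ratio of -0.49. Its other probe sets were lower too, at -0.63 (317.8 against 205.8) and -0.24 (52.1 against 25.6, the latter raised to the floor). All 3 probe sets of Psmc6 were therefore dimmer on the adenosine array.

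Psmc4 was the exception of the ring. Its brighter probe set read 1800 with IFN-gamma alone and 615.9 with adenosine (deposited 218.5), a log2 ratio of -1.55 or 2.92-fold lower. Its other probe set read 914.7 and 835.2, a log2 ratio of -0.13. The 2 differ by 1.42 on the log2 scale, the widest gap among the 12 subunit genes for which 2 probe sets exceeded the floor with both treatments. The low value of Psmc4 thus rests on 1 of its 2 probe sets, and what sets them apart was not tested.

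Psmc3ip, taken in by its symbol alone, was at 130.8 and 114.7 (-0.19). With it counted as an ATPase the class median moved from -0.01 to -0.07.

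Genes of the base and lid had a median log2 ratio of 0.12, with 9 of 14 above 0 and none past 2-fold. The large scaffold genes of the base were slightly brighter with adenosine, within the scatter of probe sets. Psmd1 was at 1364 and 1496 (0.13) and Psmd2 at 1665 and 2085 (0.32). Psmd4, which encodes a receptor for ubiquitin chains, read 1512 on both arrays, and its second probe set was at -0.05.

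Psmd14, the enzyme that cuts the ubiquitin chain off the substrate, was at 2404 and 2240 (-0.10), and its partner gene Psmd7 at 1040 and 1021 (-0.03). Neither left the scatter of probe sets.

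The remaining lid genes encode the curved scaffold proteins around that enzyme. Psmd6 was at 2361 and 2571 (0.12, second probe set -0.33), Psmd8 at 2763 and 3178 (0.20) and Psmd12 at 1760 and 1957 (0.15). Psmd13 was at 631.6 and 680.5 (0.11, second probe set -0.05). Psmd11 had 5 measured probe sets. The brightest read 2090 and 2080 (-0.01), and 3 others lay at 0.04, 0.16 and 0.33. Only its dimmest measured probe set passed 2-fold, from a signal of 8.3, raised to the floor, to 96.4, a log2 ratio of at least 1.13.

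Psmd3, another lid scaffold gene, had the highest log2 ratio of the subunits. It went from 541.2 to 968.5, 1.79-fold higher (0.84), by its single probe set. In the deposited values it too was lower, at 541.2 and 343.6, but it was the 1 subunit gene that did not reach 2-fold lower there.

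The Psmd names include 3 chaperones that help to build the cap and then leave it, and these lay on both sides of the array median. Psmd10, also known as the oncoprotein gankyrin, was at 762.9 and 506.8, 1.505-fold lower (-0.59), by 1 probe set. Psmd9 was at 260.6 and 339.1 (0.38) and Psmd5 at 430.3 and 438.0 (0.03). Without these 3, the median of the 11 base and lid genes was still 0.12.

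Second probe sets put a limit on reading these small ratios. In 6 of these 12 genes the 2 log2 ratios had different signs, although in Psmd11 and Psmd13 they differed by only 0.05 and 0.15. The median size of the difference was 0.29, and 9 of the 12 differed by less than 0.50. For the 11 of these genes other than Psmc4 the probe set scatter was 0.24. It came from the root mean square of the differences, whereas the 0.52 came from their SD. The SD between the 31 subunit genes other than Psmc4 was close to it, at 0.28. Of the 62 probe sets found by symbol, 12 were below the floor on both arrays. These were second or later probe sets of Psma1, Psma5, Psma6, Psmb1, Psmc1, Psmd4, Psmd7, Psmd9 and Psmd11.

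**Figure D3:**
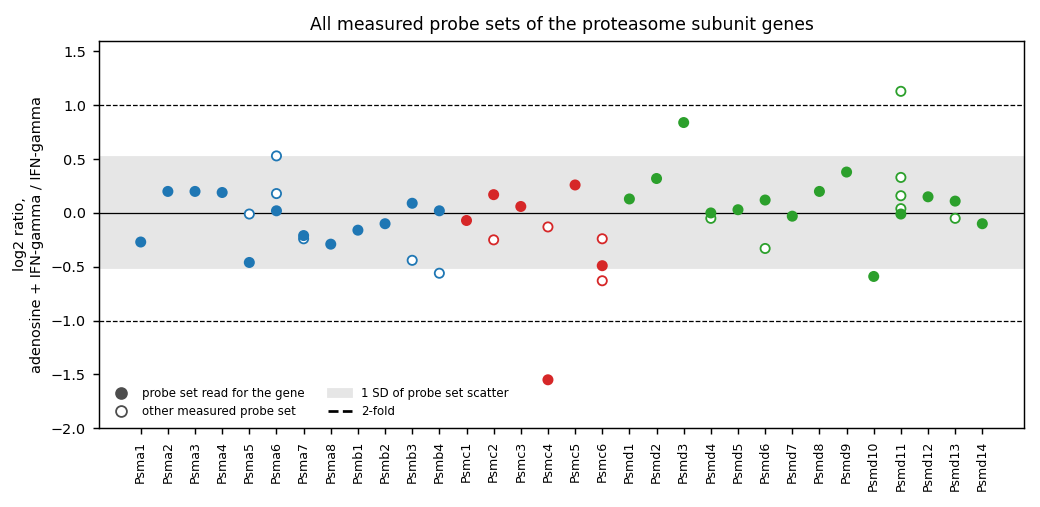
Log2 ratio of the adenosine array to the other for every measured probe set of the 32 subunit genes; filled points are the probe sets read for the gene, open points the others, the grey band is 1 SD (0.52) of probe set scatter and dashed lines mark 2-fold. Psmc4 has 1 probe set at -1.55 and the other at -0.13, and 1 dim probe set of Psmd11 is drawn at 1.13, a lower bound set by the floor.

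Promoter windows from RefSeq (GRCm38.p6, 250 bases before to 50 after the start) were found for 26 of the 32 subunit genes; Psma8, Psmb1, Psmb2, Psmc3, Psmd3 and Psmd7 had none in the table. Proteasome genes are known to be induced together by the transcription factor NRF1 through antioxidant response elements, and NF-Y binds CCAAT boxes in many promoters. The core of the first, TGACNNNGC, was searched on both strands and was present in 3 of the 26 genes (11.5%), against 14.0% of all 27025 genes with a window. The letters CCAAT, on either strand, were present in 11 (42.3%) against 41.1%. Both shares lay near those of all genes. By class, CCAAT was in 6 of 9 core genes, 2 of 5 ATPase genes and 3 of 12 base and lid genes. A match is only a match of letters. The stretches of the 3 genes with the first motif and a core gene with the second are shown 5′ to 3′ on the gene's strand, with the match in capitals.
Psmc6, chr14:45329574-45329633, plus strand: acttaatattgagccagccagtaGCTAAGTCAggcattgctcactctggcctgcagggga
Psmd12, chr11:107479278-107479337, plus strand: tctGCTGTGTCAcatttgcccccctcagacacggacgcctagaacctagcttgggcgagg
Psmd9, chr5:123228130-123228189, plus strand: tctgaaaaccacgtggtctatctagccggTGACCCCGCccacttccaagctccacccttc
Psmb3, chr11:97703364-97703423, plus strand: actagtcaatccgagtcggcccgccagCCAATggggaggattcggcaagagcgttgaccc

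The 3 genes with the antioxidant motif had log2 ratios of -0.49 (Psmc6), 0.15 (Psmd12) and 0.38 (Psmd9), on both sides of the array median. Neither motif was found in the window of Psmc4, the gene with the lowest ratio. Its 250 bases before the start, with no capitals because nothing matched, follow.
Psmc4, chr7:28050093-28050342, minus strand: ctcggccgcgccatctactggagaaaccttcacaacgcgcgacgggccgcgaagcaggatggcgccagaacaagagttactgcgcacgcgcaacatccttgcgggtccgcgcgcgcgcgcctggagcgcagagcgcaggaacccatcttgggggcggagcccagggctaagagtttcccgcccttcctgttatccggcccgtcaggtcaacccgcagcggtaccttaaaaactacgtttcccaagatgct

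Factors tied to these promoters were read as well, 6 of the 7 on the array being measured, with a median log2 ratio of -0.21. Of these, 2 were at least 2-fold lower, against 10.1% of all measured genes. Nfe2l1, which encodes NRF1, was at 265.1 and 241.9 (-0.13). Nfe2l2, which encodes its relative NRF2, was at 2267 and 1120 (-1.02) by its single measured probe set. Ngly1, the glycanase that NRF1 needs to become active, went from 297.5 to 30.4, below the floor, and was at least 6.76-fold lower by its single measured probe set. The NF-Y gene Nfya was the highest at 0.33 (second probe set 0.5). Nfyb was at -0.28 (second probe set -0.98) and Nfyc at 0.14.

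The 6 catalytic subunits that share the core with these genes had log2 ratios with an SD of 0.61, against 0.22 for the 12 core genes here, 0.68 for the ATPases with Psmc4 and 0.29 without it. The forms present without interferon had log2 ratios of 0.33 (Psmb5), -0.02 (Psmb6) and 0.53 (Psmb7), and the immune forms 0.41 (Psmb8), -0.93 (Psmb9) and -0.69 (Psmb10). None of the 6 passed 2-fold, and 3 lay within 0.52 of 0.

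For other partners of the particle the reading depended on the probe set. Of 16 partner genes with a second measured probe set (activators and inhibitor, assembly, cap-associated and segregase genes outside the members), 12 lay within 0.52 of 0 by the brightest probe set and 4 by the second, and 4 passed 2-fold by the second. The second probe set is the dimmer one by selection, and the same counts over all genes were not made. Whether this pattern is particular to the partner genes was therefore not tested. Of 4 measured activator and inhibitor genes none passed 2-fold by its brightest probe set, but second probe sets of Psme3 (1.12) and of the inhibitor gene Psmf1 (-1.12, first 0.20) did. Psme1, part of the interferon-induced activator ring, was at 2410 and 2271 (-0.09), Psme3 was the highest at 0.61 and Psme4 the lowest at -0.43 (second probe set -0.85). Psme2 was not analysed here. Of 8 assembly factors, which include Psmd5, Psmd9 and Psmd10, 1 passed 2-fold: Psmg2, of the chaperone pair that starts the outer ring, was at 587.3 and 261.0 (-1.17, second probe set -1.12). Its partner gene Psmg1 was at -0.47 and Psmg4 was the highest at 0.39. Pomp, which guides the closing of the core, was at 2532 and 2778 (0.13).

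Cap-associated proteins had a median of 0.09 over 11 genes. Rad23b, a shuttle that carries ubiquitinated proteins to the cap, was the highest, at 1506 and 2724 (0.85, second probe set 0.86). Ubqln2, another shuttle gene, was the lowest and the 1 member past 2-fold, at 517.0 and 248.9 (-1.05), but its second probe set was at 0.55 or more, with a signal raised to the floor. Second probe sets of genes near the median also differed: Ubqln4 had 0.18 and 1.35, Usp14 0.09 and -0.94, Ube3c 0.04 and -0.70, Zfand5 -0.15 and -0.77, and Sem1 0.09 and -0.60. Genes of the segregase that pulls ubiquitinated proteins from membranes and complexes had a median of 0.44 over 7. Vcp, its ATPase, was at 2203 and 2925 (0.41). Its cofactor genes ran from Nsfl1c at -0.28 to Ubxn1 at 0.88. Uba3, part of the enzyme that activates the ubiquitin-like protein NEDD8, was at 399.9 and 316.0 (-0.34, second probe set -0.64).

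Narrow spread near the array median was also seen in another large complex. The 8 genes of the cytosolic chaperonin, which folds actin and tubulin, had a median of 0.18 and an SD of 0.17. Their log2 ratios ran from -0.25 (Cct6a, second probe set 0.17) to 0.23 (Cct7, second probe set 0.11). Cytosolic ribosomal protein genes were taken by symbol alone (Rpl or Rps and a number, without Rps6k and pseudogene symbols). They had a median of 0.53 over 41 measured, with 16 (39.0%) within 0.52 of 0. They ran from -1.12 (Rpl7l1, whose symbol marks it as Rpl7-like) to 2.21 (Rpl27a, from a signal of 56.2). None of these differences between lists was tested.

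**Figure D4:**
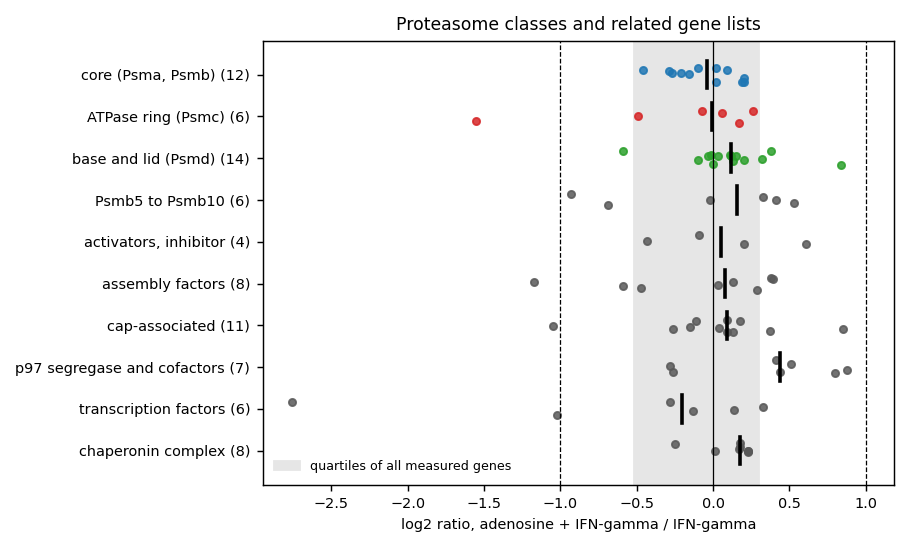
Log2 ratios (adenosine array to the other) by list, 1 point per measured gene with the number of genes in parentheses, black bars for medians, a grey band for the quartiles of all measured genes (-0.52 to 0.30) and dashed lines at 2-fold. The core runs from -0.46 to 0.20, the ATPases from -1.55 (Psmc4) to 0.26, the base and lid from -0.59 to 0.84, and Psmb5 to Psmb10 from -0.93 to 0.53.

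Direction depends on how the arrays are brought together. In the deposited values all 32 subunit genes were lower on the adenosine array, with log2 ratios from -3.04 (Psmc4) to -0.66 (Psmd3) and a median of -1.47, and 31 (96.9%) were at least 2-fold lower against 78.8% of measured genes. The median of all measured genes in these values was -1.50. Scaled on the 18 probe sets of spiked-in hybridisation controls, the subunit median was -0.94 and that of all measured genes -1.01. With that scaling 11 subunit genes were at least 2-fold lower (34.4%, against 50.7% of measured genes). Under all 10 planned and 3 added settings the subunit median stayed from 0.00 to 0.15 above the median of all measured genes on the log2 scale.

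**Figure D5:**
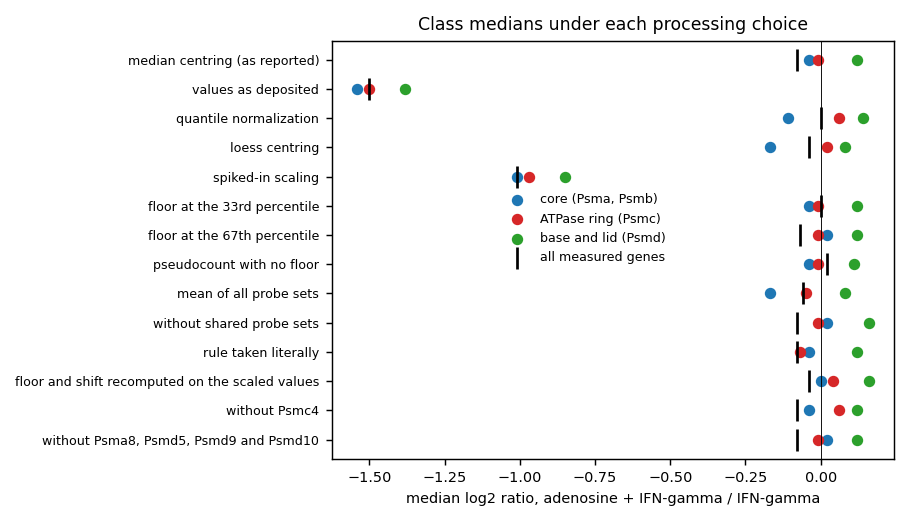
Median log2 ratio (adenosine array to the other) for the 3 proteasome classes (coloured points) and for all measured genes (black bars) under each processing choice. Class medians move with the median of all measured genes, to about -1.5 in the deposited values and about -1.0 with spiked-in scaling.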

How the data were processed

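Probe set intensity values, linear and 1 per array, were used as deposited by the authors; the submitters' processing notes name Affymetrix GCOS, and for the signal algorithm and the scaling nothing is given in the sources used here. Of 22626 gene probe sets, 20380 had 1 symbol, 691 several and 1555 none in the table used; 64 control probe sets were used for scaling checks only. All 33 member symbols equalled the current RefSeq symbol of their Entrez identifier.

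Log2 ratios were centred on their median over probe sets above 24.5, the median deposited signal, on both arrays. The floor was the 50th percentile of scaled signals, and dimmer signals were raised to it. The probe set brightest on average stood for its gene. Genes were counted by size (2-fold), with no test, since each treatment had 1 array. The scatter SD came from the 2 brightest probe sets per gene. Every member was named; from related lists, the highest and lowest genes and a fixed few were. Further examples were chosen after their values were seen. Members and lists were chosen with earlier results of these data known. The number of arrays limits the precision. Calculations used Python 3.11.15, numpy 2.4.6, pandas 2.3.3 and statsmodels 0.14.6 and were tested on simulated data.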

Additional observations from a re-analysis of the deposited data

How the results depend on the processing

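No paired analysis was possible because there is a single array per treatment, which also means that no array could be left out. The values as deposited gave medians of -1.54 (core), -1.50 (ATPases), -1.38 (base and lid) and -1.47 (all subunit genes), with 31 genes at least 2-fold lower and 0 above 0; spiked-in scaling gave -1.01, -0.97, -0.85 and -0.94, with 11 lower and 0 above 0. The count of 1 gene at least 2-fold lower became 0 with the mean of all probe sets and without Psmc4. The same count became 0 without probe sets with names ending in _s_at, _x_at or _a_at, which left 24 subunit genes. Each of these settings removes or dilutes 1 probe set of Psmc4, whose name ends in _a_at. Whether that probe set also detects other genes was not tested. The count of lower genes was 2 at 1.5-fold and 0 at 3-fold, and the count of higher genes was 1 at 1.5-fold. With the mean of all probe sets 5 signs turned, the core median was -0.17, the median of all subunit genes -0.03, and 15 genes were above 0. Quantile and loess scaling turned the sign of 6 and 5 of the 32 genes and moved none by 0.52 or more; the core median became -0.11 and -0.17. Moving the floor to the 33rd or 67th percentile, or a pseudocount of 16 in its place, turned no sign. Chosen after the data were seen, recomputing the floor and shift on scaled values turned 3 signs, with 21 genes above 0 instead of 18. Leaving out Psma8, Psmd5, Psmd9 and Psmd10 gave a median of 0.04.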
